A study of Mus musculus with 9 samples.

Results

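Salivary glands of mice that had undergone sleeve gastrectomy (SG, 3 libraries) were compared with glands of diet-induced obese mice (DIO, 3 libraries) across all genes. These 6 libraries, of 9 in the study, were taken by their labels and fitted alone. All mice were wild-type female C57BL/6 and were 34 weeks old at collection. Both groups had eaten a diet with 60% of its calories as fat for 20 weeks from the age of 4 weeks. SG mice then lost about 80% of the stomach along its greater curvature at 24 weeks of age, under 2% isoflurane and after a 12-hour fast. For DIO mice the labels name no operation, sham, fast or anaesthesia. They also give no diet after those 20 weeks, no body weight, no time of day at collection and no animal for each library. The operation, its fast, its anaesthesia and any change of diet after it therefore cannot be told apart, and part of the spread between libraries that the p-values rest on may be technical. The other 3 libraries came from mice on chow (control) and are given as levels only.

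The samples were submandibular and sublingual glands together. The submandibular gland makes watery serous secretion in its acini and, in rodents, stores growth factors and kallikrein proteases in granular ducts, while the sublingual gland makes mucus. Immune cells also live in these glands: plasma cells make the immunoglobulin A that the epithelium carries into saliva, and T cells, B cells and macrophages lie between the ducts. Interferon is a signal by which infected or immune cells make their neighbours switch on antiviral genes and genes that load peptides onto major histocompatibility (MHC) molecules. Most cells, gland cells included, also run a circadian clock, so that the level of many transcripts depends on the hour.

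Totals ran from 36349885 to 40171233 counts per library, and the 10 most abundant genes took 43.9% to 52.5% of them. Mean rank correlations of a library with the other 5 were 0.986 to 0.989. The gland's own genes were present in all 6. Klk1, a granular duct kallikrein, ran from 24400 to 30420 CPM (read counts scaled so that library sizes match) in DIO and from 26270 to 35010 CPM in SG. Prol1, a secreted proline-rich protein of the acini, ran from 55230 to 93350 CPM in DIO against 89170 to 105500 CPM in SG. Muc19, the sublingual mucin, ran from 897 to 1534 CPM and from 903 to 1417 CPM. The groups overlapped in all 3 genes and none was called.

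The question was what the operation is followed by in the obese gland. Of 14463 genes tested, 179 were called, that is, had an adjusted p under 0.05 in edgeR's quasi-likelihood test. The unadjusted p of that test was under 0.05 in 1652 genes, the background for such counts in the lists below. Of these, 158 were lower in SG (1.09% of the genes tested) and 21 were higher (0.145%). The genes that fell included many of lymphocytes, of MHC class II and of the interferon response, and the chaperones Hspa8 and Hsph1. The genes that rose included 3 genes of the circadian clock and 2 enzymes of cholesterol synthesis. All 3 SG libraries lay outside the range of all 3 DIO libraries in each of the 179. Such a gap was far more common than a call: SG lay wholly above DIO in 7.53% of all genes tested and wholly below in 9.09%, called genes included.

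The genes called lower were expressed at low levels and changed by more than those called higher. Their median level over both groups was 4.11 CPM and 107 of the 158 had a mean under 10 CPM in both groups, while the median of the 21 higher genes was 26.8 CPM. The median size of the change was 1.34 on the log2 scale for the genes that fell and 0.66 for those that rose. Of the 158, 21 entered the test only because they passed the filter on low counts in DIO, so these had to be lower in SG to be tested. All 158 are annotated as protein-coding in the table, against 17 of the 21.

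The number of calls rested on single libraries. Without DIO 1 edgeR called 0 genes, with 1153 at an unadjusted p under 0.05, and without DIO 2 it called 1 gene, Irs2, an adaptor of the insulin receptor, which was not among the 179 (log2 fold change -1.08, SE 0.23, adjusted p = 0.0514 with all 6). Without SG 3 the count was 29, without SG 2 it was 87, without SG 1 it was 217 (57 of them higher) and without DIO 3 it was 250. With the control libraries in the fit it was 0, with 1331 at an unadjusted p under 0.05, and with control 1 and 3 but not control 2 it was 117. On the same 6 libraries DESeq2 called 391 genes and limma-voom 103. All 179 genes kept their direction and an unadjusted p under 0.05 in each of the 6 fits without 1 library, and 16 lower and 3 higher genes were called in at least 4 of them. Those fits reuse the libraries that picked the genes. With all 9 libraries in edgeR, 129 of the 179 had an unadjusted p under 0.05 and 0 had an adjusted p under 0.10.

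**Figure D1:**
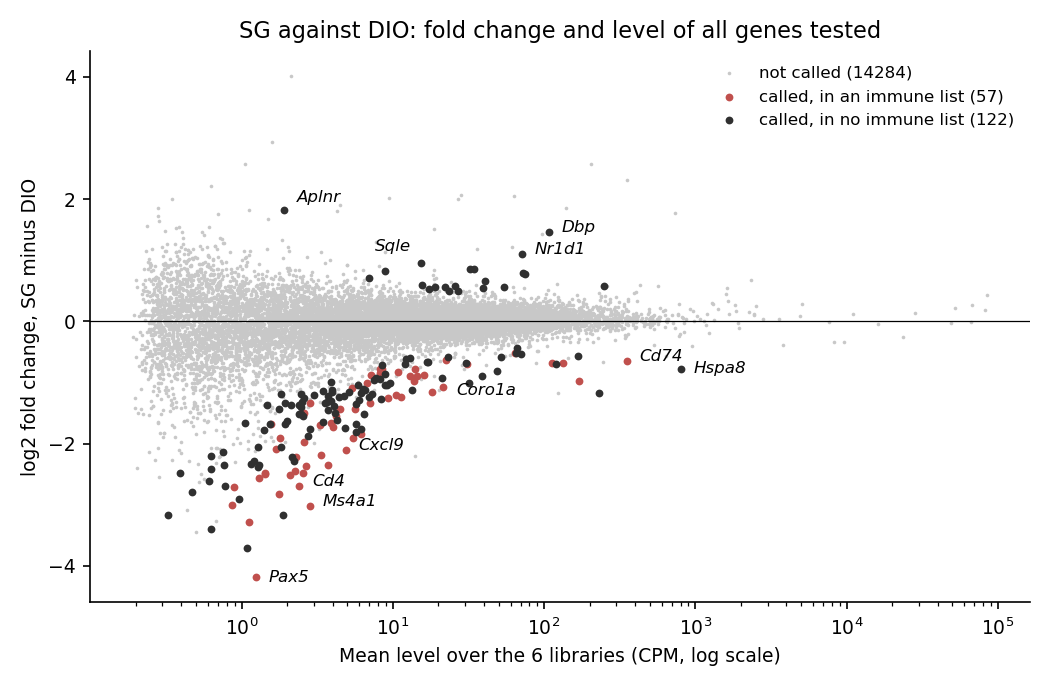
Log2 fold change (SG minus DIO, vertical axis) against the mean level over the 6 libraries (CPM, log scale) for the 14463 genes tested, 1 point a gene. Grey points were not called, red points are the 57 called genes of an immune list and dark points the other 122, and most called genes lie below 0 at levels under 10 CPM.

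**Figure D2:**
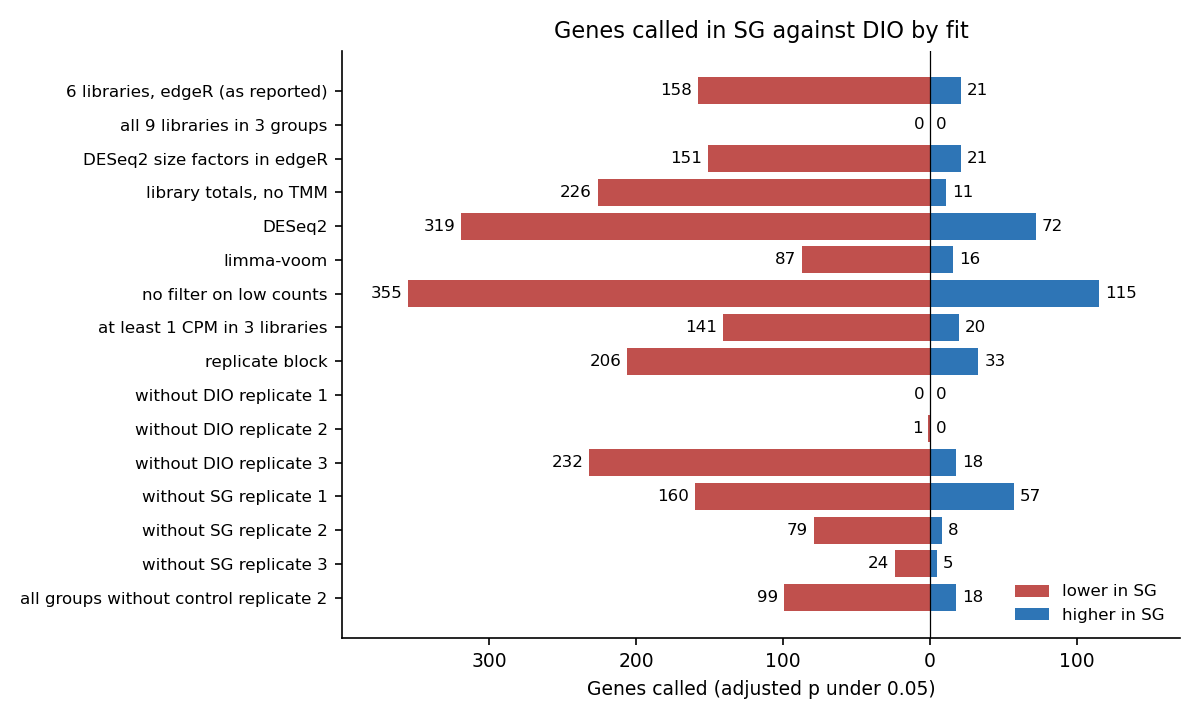
Number of genes called lower (red, to the left) and higher (blue, to the right) in SG against DIO for the fit reported and for each alternative. The count is 0 without DIO replicate 1 and with all 9 libraries, and largest, at 355 lower and 115 higher, with no filter on low counts.

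Genes of leukocytes were well represented among those that fell. Of the 158 genes, 38 were in a list of leukocyte genes, 57 were in a list for leukocytes, interferon, MHC or cytokines, and 94 were in no list. In the gene ontology column that the authors deposited, a term with the words T cell or B cell stood beside 83 of the 158 (52.5%) and beside 5.19% of all genes tested, and a term with the word immune beside 61 (38.6%) and 6.04%. Those words were chosen after the called genes had been seen. DIO 3 was the lowest of the DIO libraries in 130 of the 158 genes and in 52 of the 57.

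All 12 B cell genes tested were lower in SG, all 12 without overlap, and 7 were called, among them Pax5, Ms4a1, Blk, Cd79a, Spib and Cd22. For all genes tested the shares were 9.09% wholly below DIO and 1.24% called. Their median log2 fold change was -2.43, against 0.01 for all genes tested. For 4 of the 12, only DIO was above the filter's cut in all 3 libraries. Ms4a1, which encodes the B cell surface protein CD20, stood at 4.89, 7.76 and 2.60 CPM in DIO 1 to 3 and at 0.335, 0.553 and 0.990 CPM in SG 1 to 3. The lowest DIO library lay well above the highest SG library (log2 fold change -3.03, SE 0.45, adjusted p = 0.0162). Pax5, the transcription factor that keeps B cell identity, stood at 1.42, 4.26 and 1.40 CPM in DIO and at 0.0516, 0.0527 and 0.283 CPM in SG. Pax5 fell by 4.19 on the log2 scale (SE 0.67, adjusted p = 0.0190), and 2 of its SG levels were under that of 3 counts, 0.0747 to 0.0813 CPM. Cd79a, a signalling chain of the B cell receptor, averaged 6.23 CPM in DIO and 1.23 CPM in SG and fell by 2.34 on the log2 scale (SE 0.36, adjusted p = 0.0162).

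The T and NK cell list gave 22 genes, all 22 lower and 17 of them without overlap. For all genes tested, 9.09% lay wholly below DIO and 1.24% were called. Of the 22, 12 were called and the median was -1.82. For 5 of the 22, only DIO was above the filter's cut in all 3 libraries, which leans toward a lower level in SG. Cd4, the coreceptor of helper T cells that macrophages can also carry, stood at 5.23, 4.98 and 2.34 CPM in DIO and at 0.697, 0.658 and 0.566 CPM in SG. Every DIO library lay above every SG library (log2 fold change -2.70, SE 0.34, adjusted p = 0.0134). Cd8a, the coreceptor of cytotoxic T cells, fell by 2.09 (SE 0.43, adjusted p = 0.0409). Among the others, Cd3d and Cd3g are chains of the T cell receptor complex, Lck and Zap70 are its kinases, Il7r and Ccr7 mark naive and memory T cells, and Nkg7 belongs to the killing granules of T and NK cells. Ccr7 fell from 2.67, 2.78 and 1.84 CPM to 0.464, 0.290 and 0.538 CPM (log2 fold change -2.49, SE 0.35, adjusted p = 0.0162). Nkg7 fell from 4.28, 3.31 and 3.97 CPM to 1.32, 1.501 and 1.25 CPM (log2 fold change -1.51, SE 0.23, adjusted p = 0.0162).

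Plasma cell genes moved less evenly. Of 9 tested, 6 were lower and 3 were called (33.3%, against 1.24% of all genes tested). Mzb1, a chaperone of antibody-secreting cells, stood at 11.5, 9.51 and 7.76 CPM in DIO and at 2.06, 1.98 and 3.99 CPM in SG (log2 fold change -1.85, SE 0.26, adjusted p = 0.0162). Pou2af1 and Irf4, transcription factors of B and plasma cells, fell by 1.90 (SE 0.33, adjusted p = 0.0224) and 1.70 (SE 0.35, adjusted p = 0.0396). Jchain, which joins the units of immunoglobulin A, stood at 232, 157 and 121 CPM in DIO and at 83.6, 45.4 and 98.1 CPM in SG. Its groups did not overlap, yet it was not called (adjusted p = 0.0703). Pigr, the epithelial receptor that carries that immunoglobulin into saliva, was not called either, at 202 to 222 CPM in DIO against 231 to 387 CPM in SG.

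Genes shared by all leukocytes were called lower in 13 of 18 members (72.2%, against 1.24% of all genes tested called). In all, 17 were lower, with a median of -0.89. Coro1a, an actin regulator of blood cells, stood at 32.6, 31.4 and 23.9 CPM in DIO and at 12.7, 13.8 and 15.3 CPM in SG. It was among the genes called in 4 of the 6 fits without 1 library (log2 fold change -1.07, SE 0.13, adjusted p = 0.0134). Ptprc, which encodes CD45, fell from 29.01, 29.99 and 16.12 CPM to 11.1, 10.7 and 11.9 CPM, a log2 fold change of -1.16 (SE 0.20, adjusted p = 0.0204). The exception was Lcp1, at 309 to 357 CPM in DIO against 359 to 394 CPM in SG, which was the 1 member higher in SG and was not called. In bulk tissue, fewer cells of a type and less RNA per cell cannot be told apart.

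Macrophage and dendritic cell genes did not share the falls as calls. Of 26 tested, 20 were lower, 7 of them without overlap (9.09% of all genes tested lay wholly below DIO). By edgeR 0 were called (median -0.23), with 8 at an unadjusted p under 0.05. For 3 of the 26, only DIO was above the filter's cut in all 3 libraries. DESeq2 called 3, the dendritic cell genes Itgax, Clec9a and Flt3. Their summed level was 405 to 524 CPM in DIO against 320 to 445 CPM in SG, so the groups overlapped. For the B cell list the sum was 22.4 to 61.0 CPM in DIO against 5.46 to 10.99 CPM in SG, and for the T and NK cell list 46.1 to 78.0 CPM and 23.5 to 25.9 CPM, both without overlap. The difference between the lymphocyte and the macrophage lists was not tested.

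Lymph nodes lie against these glands, and the genes of that list were lower as well. Of 9 listed, 6 were tested and all 6 were lower. For 3 of the 6, only DIO was above the filter's cut in all 3 libraries. In all, 3 were called (50%, against 1.24% of all genes tested), among them Ltb and Cxcr5, which lymphocytes themselves express. Their sum was 13.1 to 24.8 CPM in DIO against 4.75 to 10.1 CPM in SG. Markers of the node's own stroma were near 0: Madcam1 had 0 or 1 count in every one of the 6 libraries, and Glycam1 had 23 counts in DIO 2 and 0 to 2 in the others. Ccl21a, a chemokine of node stroma and lymphatic vessels, was at 2.01 to 2.28 CPM in DIO against 0.869 to 1.32 CPM in SG (adjusted p = 0.154). The part of such tissue in the lymphocyte results was not tested. Control libraries varied widely. The B cell sum was 12.98, 167 and 1.32 CPM and the lymph node sum 8.17, 152 and 5.44 CPM in control 1 to 3.

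**Figure D3:**
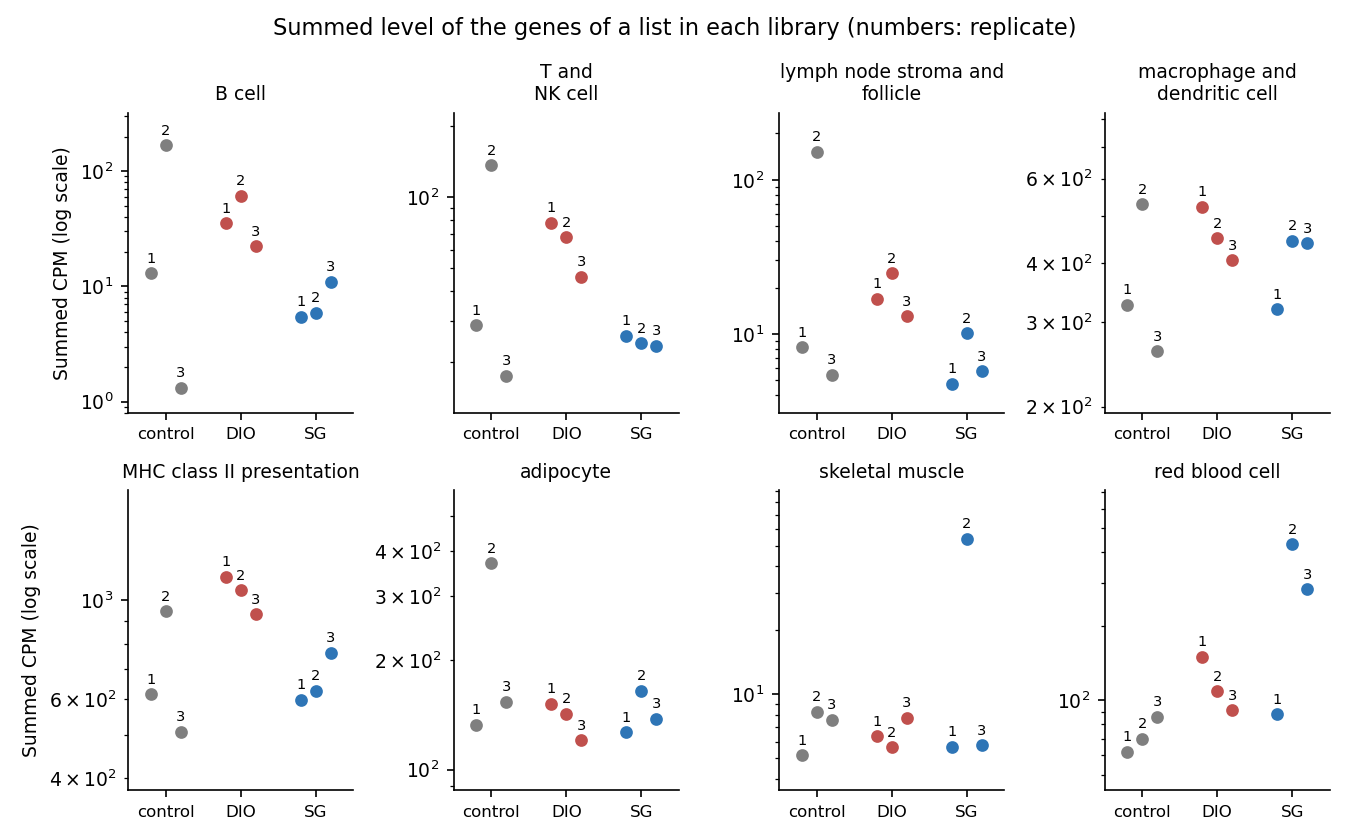
Summed level of the genes of 8 lists (CPM, log scale, scaled over all 9 libraries) in each control, DIO and SG library, with the replicate number above each point. The B cell, T and NK cell, lymph node and MHC class II sums of SG lie below those of DIO without overlap, the macrophage sums overlap, and control 2 is the highest library in the panels for B cells, T and NK cells, lymph node and macrophages but not for MHC class II.

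Beyond the lists, several of the genes that fell are textbook lymphocyte genes, named here after their values were seen. Btla, an inhibitory receptor of lymphocytes, and Fcmr, the receptor for immunoglobulin M, fell by 3.17 and 3.70 (SE 0.54 and 0.60, adjusted p = 0.0204 and 0.0198). In both, only DIO was above the filter's cut in all 3 libraries, which leans toward a lower level in SG. In SG 1 to 3 Btla was at 0.619, 0.105 and 0.396 CPM and Fcmr at 0.0258, 0.237 and 0.198 CPM. Cd28, the costimulatory receptor of T cells, fell from 2.52, 2.60 and 1.45 CPM to 0.413, 0.421 and 0.453 CPM. Lag3 and Tigit, inhibitory receptors of activated T cells, fell by 1.79 and 1.66. Gimap1, Gimap3 and Gimap8, GTPases of lymphocyte survival, fell by 1.19, 1.51 and 1.15, and Tcf7, a transcription factor of naive and memory T cells, by 1.74. Gimap, H2, Serpina3, Ms4a and Tgtp genes have close copies, and how reads that match several copies were counted is not given in the sources used here.

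MHC class II genes, which present peptides to helper T cells, were lower in all 12 members, all 12 without overlap, and 8 were called. Across all genes tested, 9.09% lay wholly below DIO and 1.24% were called. Their median was -0.73, from -0.81 to -0.60 over the fits without 1 library. Ciita, the master activator of these genes, stood at 8.66, 10.3 and 5.71 CPM in DIO and at 3.20, 2.82 and 3.06 CPM in SG (log2 fold change -1.44, SE 0.22, adjusted p = 0.0162). Cd74, the chain that guides class II molecules to the endosome, was by far the most abundant, at 468, 439 and 393 CPM and at 245, 260 and 323 CPM (log2 fold change -0.65, SE 0.13, adjusted p = 0.0396). Per length it was at 318 ± 49.4 FPKM in DIO and 188 ± 21.0 FPKM in SG (SD, n = 3), above H2-Ab1 at 120 and 70.0 FPKM and H2-Eb1 at 103 and 59.7 FPKM. The largest falls were of H2-DMb2 and H2-Ob (-2.48 and -2.37), which belong to the peptide-loading modulators, H2-Ob being typical of B cells.

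Interferon response genes were lower in 32 of 33 members tested, 14 of them without overlap, and 5 were called, among them Cxcl9, Igtp, Gbp2 and Ifi27l2a. Calls made up 15.2% of this list and 1.24% of all genes tested, of which 9.09% lay wholly below DIO in SG. The median was -0.43 and ran from -0.54 to -0.25 over the fits without 1 library, the latter without SG 2. Cxcl9, a chemokine that draws T cells and is induced by interferon gamma, stood at 11.5, 7.50 and 4.75 CPM in DIO and at 1.96, 1.82 and 1.73 CPM in SG. The SG libraries lay close together and the DIO libraries were spread widely (log2 fold change -2.11, SE 0.29, adjusted p = 0.0154). Gbp2, a GTPase against intracellular microbes, fell from 23.6, 16.9 and 14.2 CPM to 10.9, 8.19 and 8.77 CPM (log2 fold change -0.97, SE 0.18, adjusted p = 0.0293). Control libraries were at 2.95, 2.86 and 0.625 CPM for Cxcl9. Members not called included Irf7, which drives the response to type I interferon, at 28.2 to 32.6 CPM in DIO against 16.9 to 25.8 CPM in SG (adjusted p = 0.134).

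The promoters of the called interferon genes were read to show what they share. RefSeq held a promoter for 3 of the 5 (Cxcl9, Igtp and Gbp2) on mouse build GRCm38.p6, and the 250 bases before the start site are printed 5′ to 3′, with capitals marking the core GAAANNGAA of the interferon-stimulated response element and the gamma-activated site TTCNNNGAA on either strand.
Cxcl9 (chr5:92328080-92328329, minus strand): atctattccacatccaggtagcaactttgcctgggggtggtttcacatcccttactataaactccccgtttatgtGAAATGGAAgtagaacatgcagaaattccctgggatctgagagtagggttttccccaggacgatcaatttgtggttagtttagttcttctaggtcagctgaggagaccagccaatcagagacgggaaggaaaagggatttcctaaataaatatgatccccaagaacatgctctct
Igtp (chr11:58199306-58199555, plus strand): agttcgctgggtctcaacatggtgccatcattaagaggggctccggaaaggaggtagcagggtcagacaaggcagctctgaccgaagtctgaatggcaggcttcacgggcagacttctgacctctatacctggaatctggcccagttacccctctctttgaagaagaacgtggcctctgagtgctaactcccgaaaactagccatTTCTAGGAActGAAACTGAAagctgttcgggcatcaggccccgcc
Gbp2 (chr3:142620413-142620662, plus strand): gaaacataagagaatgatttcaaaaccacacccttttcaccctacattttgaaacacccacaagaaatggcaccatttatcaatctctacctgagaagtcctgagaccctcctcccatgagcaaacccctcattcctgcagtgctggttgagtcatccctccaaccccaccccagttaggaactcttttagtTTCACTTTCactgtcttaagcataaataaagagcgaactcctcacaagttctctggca
The core lay 175, 34 and 58 bases before the start of Cxcl9, Igtp and Gbp2, and in Igtp the gamma-activated site began 45 bases before it, next to the core. In windows of 300 bases around the start, GAAANNGAA was found in 18 of 27 interferon response genes with a promoter (66.7%), in 14 of the 109 called lower (12.8%) and in 8.85% of the 11436 genes tested that had one. TTCNNNGAA was found in 23 of those 109 (21.1%) and in 8.32% of all. Of the 12 genes called higher that had a promoter, 2 held TTCNNNGAA (16.7%) and 1 held GAAANNGAA (8.33%). Both motifs were searched on both strands, a match may overlap another motif, and it is a description of the letters only.

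MHC class I presentation, which shows peptides from inside the cell to cytotoxic T cells, gave 3 calls in 20 members, all lower. That is 15% of the list, against 1.24% of all genes tested. Psmb9 and Psmb8, subunits that turn the proteasome into its immune form, fell by 0.78 (SE 0.15, adjusted p = 0.0339) and 0.64 (SE 0.14, adjusted p = 0.04997). H2-Q7, a class I molecule, fell by 1.33 (SE 0.28, adjusted p = 0.0434). B2m, the light chain of class I, was at 378, 260 and 268 CPM in DIO and at 195, 177 and 199 CPM in SG without overlap but was not called (adjusted p = 0.0577). In all, 17 members were lower, 12 without overlap (9.09% of all genes tested lay wholly below DIO), with a median of -0.37. The constitutive proteasome list had 0 calls by edgeR and DESeq2 among 25 members, 0 at an unadjusted p under 0.05, and a median of -0.01.

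Of 21 inflammatory cytokine and NF-kB genes, 3 were called (14.3%, against 1.24% of all genes tested), all lower. Ccl5, a chemokine of T and NK cells, fell from 7.90, 6.81 and 7.37 CPM to 3.61, 3.16 and 3.54 CPM (log2 fold change -1.10, SE 0.16, adjusted p = 0.0162). Vcam1, the vessel-wall adhesion molecule that catches leukocytes, fell from 22.2, 15.6 and 10.4 CPM to 6.40, 7.50 and 6.48 CPM (log2 fold change -1.24, SE 0.22, adjusted p = 0.0259). Ccl8, a chemokine of macrophages, fell by 1.66 (SE 0.30, adjusted p = 0.0255). The classical inflammatory cytokines Il1b and Ccl2 were under 2 CPM in every library with overlapping groups, Il6 had at most 1 count, and the list's median was -0.07.

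**Figure D4:**
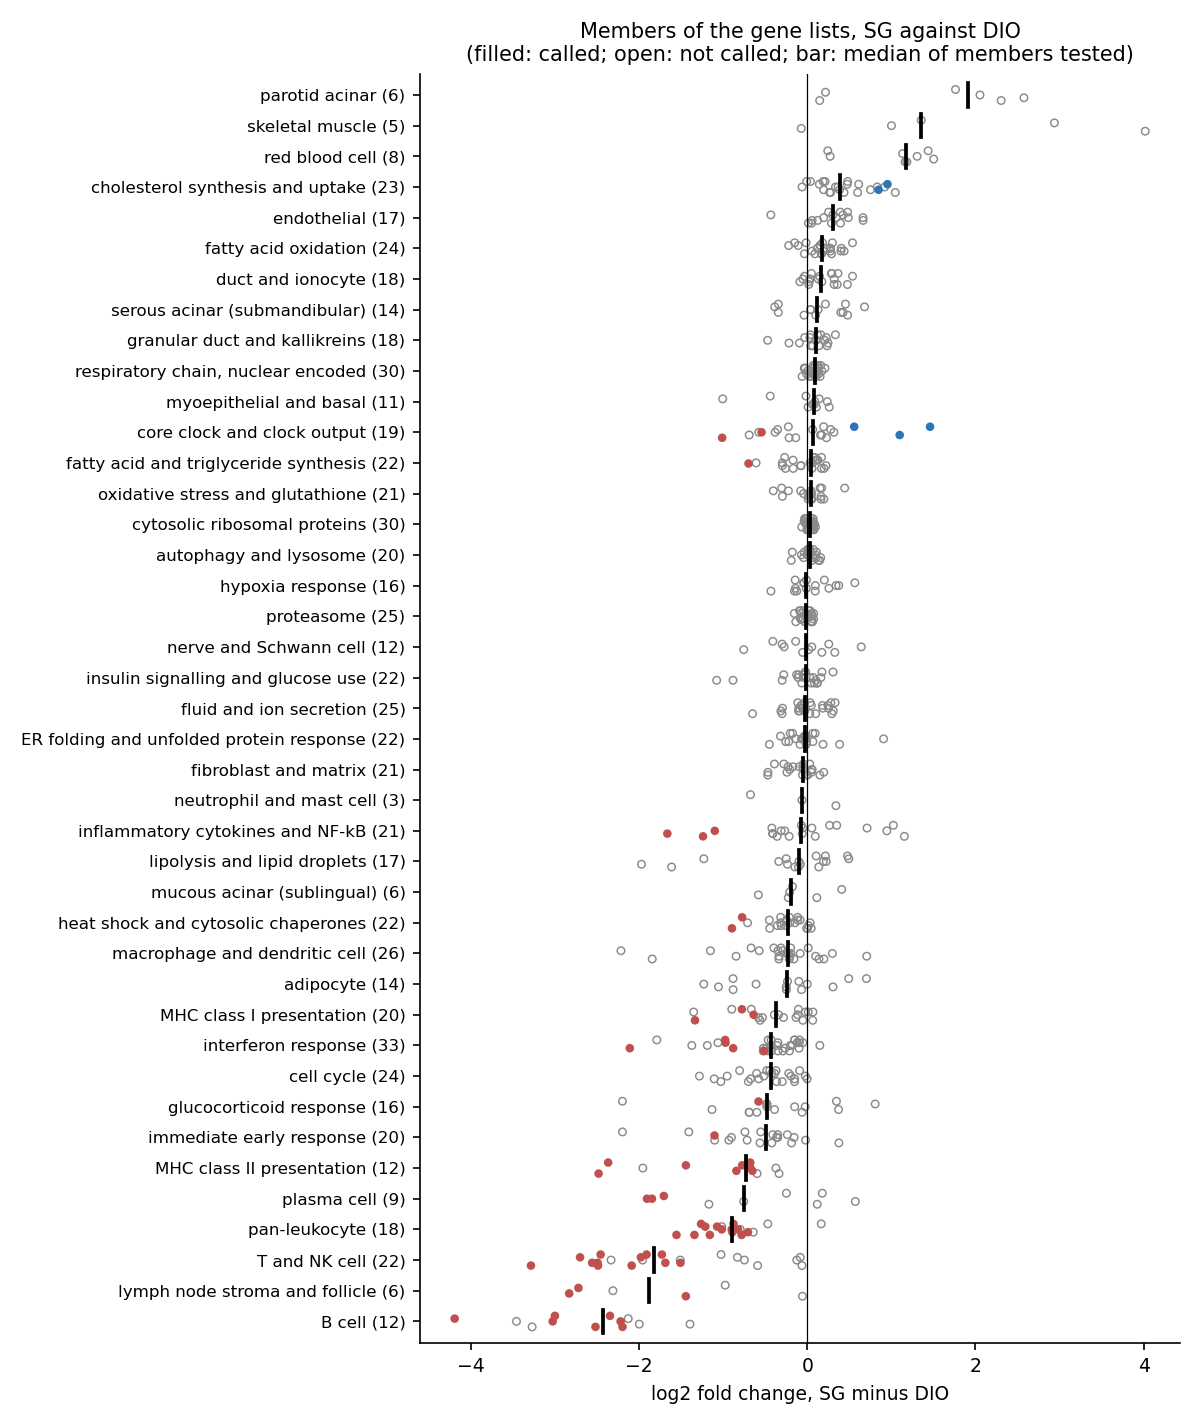
Log2 fold change (SG minus DIO) of each tested member of the 41 gene lists, with the number tested in parentheses, lists ordered by their median (black bar). Filled points were called (red lower, blue higher) and open points were not, and the lists with most red points are those for B cells, T and NK cells, all leukocytes and MHC class II.

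Heat shock and chaperone genes, most of them of the cytosol, were lower in 18 of 22 members. The list includes the mitochondrial Hspd1 and Hspe1 and the transcription factor Hsf1. Of the 22, 2 were called (9.1%, against 1.24% of all genes tested). Hspa8, the constitutive heat shock protein 70, stood at 956, 924 and 1182 CPM in DIO and at 586, 592 and 614 CPM in SG (log2 fold change -0.77, SE 0.13, adjusted p = 0.0201). Hsph1, its nucleotide exchange factor, stood at 45.9, 38.6 and 66.3 CPM in DIO and at 26.24, 26.04 and 28.81 CPM in SG (log2 fold change -0.89, SE 0.17, adjusted p = 0.0275). Both were highest in DIO 3 and fell by 0.65 and 0.64 without it. The inducible Hspa1b, at 30.9, 23.3 and 52.8 CPM and at 27.3, 16.9 and 21.2 CPM, overlapped between groups. The median of the list was -0.23 and was -0.09 without DIO 3. The list for folding in the endoplasmic reticulum had 0 calls by edgeR and DESeq2 in 22 members, with 4 at an unadjusted p under 0.05, and a median of -0.03. Control libraries held 515, 591 and 476 CPM of Hspa8.

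The Hsph1 promoter shows the element that heat shock factor binds. The 250 bases before its start site (RefSeq, GRCm38.p6) are printed 5′ to 3′ with capitals marking TTCNNGAA, a pair of inverted heat shock units.
Hsph1 (chr5:149636337-149636586, minus strand): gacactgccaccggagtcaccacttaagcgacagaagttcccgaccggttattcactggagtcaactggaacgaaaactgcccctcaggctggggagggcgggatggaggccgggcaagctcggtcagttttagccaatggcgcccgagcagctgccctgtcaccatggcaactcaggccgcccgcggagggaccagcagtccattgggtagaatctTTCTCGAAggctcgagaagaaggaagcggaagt
The pair lay 33 bases before the start, and another lay after it. The table holds a promoter for 17 of the 22 members and 5 of them had the pair (29.4%), against 8.43% of all genes tested with a promoter.

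Clock genes moved in both directions, 10 higher and 9 lower of 19. Of the 19, 3 were called higher and 2 lower (26.3% called, against 1.24% of all genes tested). Dbp, a clock-driven transcription factor with a strong daily rhythm, stood at 39.3, 70.0 and 64.3 CPM in DIO and at 127, 175 and 175 CPM in SG, a log2 fold change of 1.46 (SE 0.20, adjusted p = 0.0154). Nr1d1, which encodes the repressor REV-ERB alpha, stood at 38.7, 53.8 and 44.9 CPM and at 74.8, 97.8 and 122 CPM (log2 fold change 1.10, SE 0.17, adjusted p = 0.0162). Bhlhe41, a repressor of the clock's activators, stood at 17.7, 18.5 and 17.9 CPM and at 25.9, 27.7 and 26.1 CPM, with little spread in either group (log2 fold change 0.56, SE 0.09, adjusted p = 0.0204). Nfil3, a repressor that binds the same sites as Dbp, fell from 48.0, 28.8 and 50.2 CPM to 21.1, 16.5 and 25.4 CPM, a log2 fold change of -1.01 (SE 0.20, adjusted p = 0.0376).

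Further clock genes were not called. Per1, a repressor that also answers glucocorticoids, was at 105, 99.3 and 124 CPM in DIO and at 56.4, 54.0 and 92.8 CPM in SG (adjusted p = 0.122). Cry1, its partner, was at 27.3 to 30.4 CPM in DIO against 22.1 to 22.4 CPM in SG without overlap (adjusted p = 0.0953). Clock itself was at 21.7 to 28.9 CPM and 18.7 to 25.9 CPM. The median of the list was 0.06 and its sign changed without DIO 3, SG 1 or SG 3 and with library totals in place of TMM scaling. The hour of collection is not in the labels, and its part in these values was not tested. In control, Dbp was at 180, 143 and 183 CPM and Nr1d1 at 128, 120 and 124 CPM.

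Of the 4 called clock genes with a promoter, 1 held the E-box CACGTG to which the clock's activators bind. It is Bhlhe41, of which the 250 bases before the start site (RefSeq, GRCm38.p6) are printed 5′ to 3′ with the E-box in capitals.
Bhlhe41 (chr6:145865421-145865670, minus strand): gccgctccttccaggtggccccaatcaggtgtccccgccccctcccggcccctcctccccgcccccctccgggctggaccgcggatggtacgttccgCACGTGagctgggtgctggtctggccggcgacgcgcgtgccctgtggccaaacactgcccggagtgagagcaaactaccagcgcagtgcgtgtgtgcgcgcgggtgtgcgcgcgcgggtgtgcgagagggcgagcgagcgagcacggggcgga
The E-box lay 153 bases before the start. The letters were found in 5 of 16 clock list members with a promoter (31.3%) and in 11.4% of all genes tested with one, and they were not found in the 300-base windows of Dbp, Nr1d1 and Nfil3.

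Genes that respond to glucocorticoids gave 1 call among 16 (6.25%, against 1.24% of all genes tested). Tsc22d3, also known as GILZ, which carries part of the anti-inflammatory action of these hormones, fell from 59.4, 60.8 and 67.2 CPM to 39.1, 39.2 and 46.8 CPM (log2 fold change -0.58, SE 0.10, adjusted p = 0.0217). In all, 13 members were lower, 8 of them without overlap (9.09% of all genes tested lay wholly below DIO), with a median of -0.48. Fkbp5, a chaperone of the receptor, was at 89.5 to 132 CPM in DIO against 70.4 to 77.9 CPM in SG (adjusted p = 0.167). Metallothionein Mt1, in contrast, was at 24.8 to 32.6 CPM in DIO against 30.7 to 40.0 CPM in SG. Control libraries held 57.5, 70.7 and 64.4 CPM of Tsc22d3, near DIO.

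Immediate early genes, which switch on within minutes of a stimulus, were lower in 19 of 20 members. In that list 1 was called (5%, against 1.24% of all genes tested). Klf2, which is also a factor of endothelium and resting lymphocytes, fell from 8.36, 8.08 and 9.53 CPM to 4.85, 2.98 and 4.25 CPM (log2 fold change -1.10, SE 0.19, adjusted p = 0.0204). DIO 3 was high for several others. Dusp1, a phosphatase, was at 55.2 CPM in DIO 3 and at 7.19 and 7.13 CPM in the other DIO libraries, beside 4.13 to 6.40 CPM in SG. Jun was at 118 CPM in DIO 3 and at 42.2 to 54.2 CPM in the other 5 libraries. The median of the list was -0.49 and was -0.19 without DIO 3. Control libraries held 5.72, 16.65 and 10.27 CPM of Klf2.

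Cholesterol synthesis and uptake genes were higher in 21 of 23 members, 10 of them without overlap, and 2 were called. Across all genes tested, 7.53% lay wholly above DIO in SG and 0.145% were called higher. Sqle, squalene epoxidase, stood at 11.08, 10.04 and 10.23 CPM in DIO and at 28.4, 15.33 and 16.98 CPM in SG (log2 fold change 0.95, SE 0.20, adjusted p = 0.0422). Fdft1, squalene synthase, stood at 21.96, 20.45 and 27.12 CPM and at 53.6, 31.9 and 39.7 CPM (log2 fold change 0.85, SE 0.17, adjusted p = 0.0396). SG 1 was the highest library for both, and the fold changes were 0.63 and 0.63 without it (adjusted p = 0.0318 and 0.0514). The same library was highest for Cyp51 and Msmo1, which strip methyl groups from sterols, at 36.1 and 33.0 CPM against 17.4 to 18.5 CPM in SG 2 and SG 3, and neither gene was called (adjusted p = 0.154 and 0.125). The list's median was 0.38 and was 0.16 without SG 1. SG 1 also held 1699 CPM of Amy1, the amylase of the parotid gland, against 12.0 to 242 CPM in the other 5 libraries. The part of parotid tissue in the cholesterol values was not tested.

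Fat metabolism gave 1 call. Scd1, the desaturase that makes monounsaturated fatty acids, stood at 145, 152 and 147 CPM in DIO and at 96.8, 68.6 and 108 CPM in SG (log2 fold change -0.70, SE 0.15, adjusted p = 0.0409). The other 21 genes for making fatty acids and triglycerides were not called, and of all 22, 12 were higher and 10 lower. Fatty acid oxidation genes were higher in 19 of 24 with a median of 0.18 (0.10 without SG 2), and 0 were called by edgeR or DESeq2, with 4 at an unadjusted p under 0.05. Acadm, the medium-chain dehydrogenase, was at 44.3 to 51.2 CPM in DIO against 57.5 to 61.3 CPM in SG. The insulin signalling list had 0 calls by edgeR in 22 members, 4 with an unadjusted p under 0.05, and 1 by DESeq2, which was Irs2. Its median was -0.02. Control libraries held 106, 320 and 152 CPM of Scd1.

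The remaining genes that rose belong to no single function, and 16 of the 21 were in no list. Aplnr, the apelin receptor of endothelium, had the largest change, from 0.734, 0.980 and 0.805 CPM in DIO to 1.60, 4.16 and 3.17 CPM in SG (log2 fold change 1.82, SE 0.36, adjusted p = 0.0350). Mob3b, of the family that binds Hippo-type kinases, rose from 22.1, 24.7 and 26.9 CPM to 44.2, 49.0 and 40.8 CPM (log2 fold change 0.86, SE 0.11, adjusted p = 0.0134). Mob3b and Dbp were among the 3 higher genes called in at least 4 of the 6 fits without 1 library. Arg1, arginase of the urea cycle and of some macrophages, rose by 0.78 (SE 0.14, adjusted p = 0.0224). Aldh1a3, which makes retinoic acid, and Cyp2s1, a cytochrome P450 of epithelia, rose by 0.53 and 0.57 (SE 0.10 and 0.11), and Ppp1cb, a catalytic subunit of protein phosphatase 1, by 0.57 (SE 0.11).

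Among the genes that fell outside the immune lists, several are abundant in the gland. Pim3, a survival kinase, stood at 278, 269 and 413 CPM in DIO and at 133, 93.5 and 198 CPM in SG. Its log2 fold change was -1.17 (SE 0.24, adjusted p = 0.0422), and DESeq2 did not call it (adjusted p = 0.0598). Slc37a2, a sugar phosphate transporter, fell from 175, 224 and 202 CPM to 146, 127 and 134 CPM (log2 fold change -0.56, SE 0.12, adjusted p = 0.0435). Cst3, the protease inhibitor cystatin C, fell from 77.2, 74.4 and 77.8 CPM to 57.1, 54.8 and 57.3 CPM, the tightest groups among these (log2 fold change -0.44, SE 0.08, adjusted p = 0.0271). Ccn2, a matrix protein induced by YAP and TGF-beta, fell from 27.2, 27.6 and 28.2 CPM to 14.4, 9.64 and 19.5 CPM (log2 fold change -0.93, SE 0.19, adjusted p = 0.0423). Serpina3f, Serpina3g and Serpina3n, inhibitors of proteases induced in inflammation, fell by 2.38, 1.81 and 1.40.

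The lists for the gland's own cells and its stroma gave no calls in edgeR. By edgeR 0 of 128 genes were called in the lists for granular duct, serous acinar, mucous acinar, duct and ionocyte, myoepithelial, fibroblast, endothelial and fluid secretion genes. Of these 128, 25 had an unadjusted p under 0.05, a larger share than the 1652 of all 14463 genes tested. DESeq2 called 4 of the 128 (Creb3l1, Krt18, Ascl3 and Cdh5) and 391 of the 14463. Egf, epidermal growth factor of the granular ducts, was at 1183, 897 and 1114 CPM in DIO and at 988, 1377 and 898 CPM in SG. Aqp5, the water channel of acini, was at 531 to 692 CPM and 578 to 742 CPM, and Chrm3, the muscarinic receptor that triggers secretion, at 46.2 to 48.0 CPM and 41.0 to 46.7 CPM. The groups overlapped in all 3. Duct and ionocyte genes were higher in 15 of 18, 7 without overlap (7.53% of all genes tested lay wholly above DIO). Their median was 0.16 and was 0.096 without SG 3. Among them Ascl3, a factor of ionocyte-like duct cells, was at 23.4 to 29.0 CPM in DIO against 30.9 to 41.2 CPM in SG (adjusted p = 0.122).

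**Figure D5:**
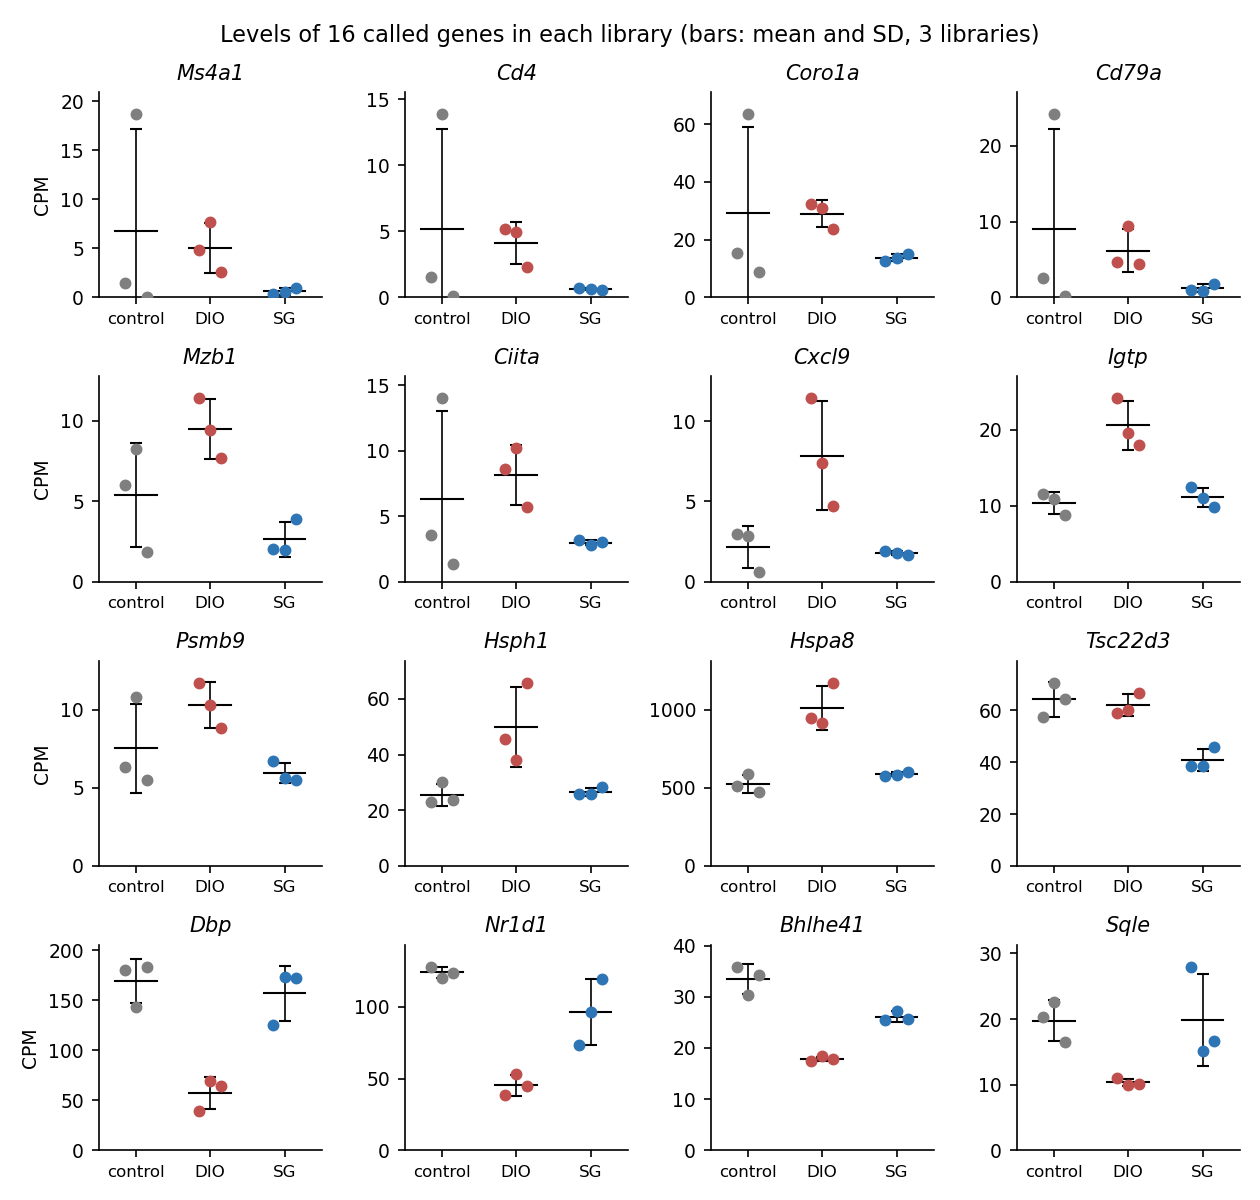
Levels of 16 called genes (CPM scaled over all 9 libraries, linear axis from 0) in the 3 control, 3 DIO and 3 SG libraries, with points for libraries and bars for mean and SD. In each panel the SG points lie wholly to one side of the DIO points, and control 2 is far above control 1 and 3 for Ms4a1, Cd4, Coro1a, Cd79a and Ciita.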

How the data were processed

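Polyadenylated RNA of the glands was sequenced. HISAT2, Salmon and build GRCm39 are named, without versions or roles, per the submitters' processing notes. Not given in the sources used here are the annotation release, whether strand was used, and how reads matching more than 1 gene were counted. The authors deposited whole-number read counts per gene, unscaled, for 23256 genes. They also deposited FPKM values, that is, counts per gene length and library size, which were used only to compare levels between genes. The gene ontology terms in the table were counted by word.

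The 6 DIO and SG libraries were fitted alone with edgeR 4.0.16 (R 4.3.3): TMM scaling, filterByExpr by group, and the quasi-likelihood F test with Benjamini-Hochberg adjustment over all 14463 genes tested, called at an adjusted p under 0.05. A gene passed the filter with 0.264 CPM, about 10 counts, in 3 libraries. Residual degrees of freedom were 4, and the common biological coefficient of variation was 0.153. Every p in the text is two-sided and, where no other tool is named, comes from this test. Fold changes are SG minus DIO on the log2 scale with their SE, and CPM use TMM-scaled totals of these 6 libraries. Control levels, summed list levels and the values of the plots by library use a scaling over all 9. DESeq2 1.42.0, limma-voom 3.58.1, other scalings and filters, the 9 libraries together, a replicate block and leaving out each library were the alternatives.

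The 41 gene lists, the tests and the members were chosen with earlier results of these data known, so list counts are descriptions. They are to be set beside the shares of all genes tested: 1.24% called, 7.53% with SG wholly above DIO and 9.09% wholly below. Genes were named by rule: the 12 largest changes to each side among called genes with non-overlapping groups, a mean of 2 CPM or more in either group and a symbol that is no clone name, the 3 called members with the smallest p of each list, and a panel of 14. Genes outside it are named as list members or after their values were seen, and a few that the rule names are not reported here. Promoters came from RefSeq (GRCm38.p6, 250 bases before to 50 after the start) and matched 11436 of the genes tested by gene number, 121 of the 179 called. No coordinate on GRCm39 is given. Replicate libraries differed far beyond counting noise (chi-square per degree of freedom 28.4 to 103). At these depths 3 counts equal 0.0747 to 0.0825 CPM, which covers counting error only. The scripts were tested on simulated counts.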

Additional observations from a re-analysis of the deposited data

How the results depend on the processing

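The count of 179 calls (21 higher, 158 lower) was 0 with all 9 libraries in the fit (0 higher, 0 lower, 1331 genes at an unadjusted p under 0.05), 391 with DESeq2 (72 and 319), 103 with limma-voom (16 and 87), 470 with no filter on low counts (115 and 355), 237 with library totals (11 and 226) and 117 with all groups without control 2 (18 and 99), an alternative chosen after seeing the data. Leaving out 1 of the 6 libraries gave 0 to 250 calls, 0 to 57 higher and 0 to 232 lower. DESeq2's size factors in edgeR (172) and a floor of 1 CPM in 3 libraries (161) stayed within 1.5 times. Library totals moved the median of all genes from 0.01 to -0.08. A replicate block gave 239 calls, 33 higher and 206 lower. Same-numbered SG and DIO libraries correlated at 0.30, 0.12 and 0.05 in their deviations from the group means. SG 2 correlated nearly equally with DIO 2 (0.1186) and DIO 3 (0.1255). The labels name no pairs, so the numbers were not taken as pairs, and these correlations do not settle whether they are. The causes of these differences were not tested, other than that fewer libraries or more genes entered the fit.

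Directions turned only in results that were not called. The fold change of Egf (0.03) was -0.049 with library totals and -0.17 to 0.15 over the fits without 1 library, -0.08 without DIO 2 among them. That of Muc19 (0.11) was -0.0071 with library totals and -0.035 to 0.38 without 1 library. That of Aqp5 (0.10) was 0.00 without SG 3 and at most 0.20, and that of Amy1 (2.31) was -1.95 without SG 1 and at most 3.37. The clock list's median (0.06) was -0.039 with library totals and -0.079 to 0.17 without 1 library, below 0 without DIO 3, SG 1 or SG 3. The parotid median was -1.59 to 2.81, below 0 without SG 1, and the skeletal muscle median -0.17 to 2.65, below 0 without SG 2. Other list medians near 0 also changed sign without 1 library, among them granular duct (-0.18 to 0.30), myoepithelial (-0.11 to 0.21) and fibroblast (-0.20 to 0.12). For these the cause was not tested. Of the 61 named genes, 51 lost an adjusted p under 0.05 without DIO 1, 51 without DIO 2 and 51 with all 9 libraries.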

Other observations

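Genes of other tissues and cells varied between single libraries and were not called. Haemoglobin and other red blood cell genes were higher in SG in all 8 members tested, with a median log2 fold change of 1.17 (0.73 without SG 2), but their sum was 431 CPM in SG 2, 282 CPM in SG 3 and 88.0 CPM in SG 1, beside 91.3 to 150 CPM in DIO, so the groups overlapped. Endothelial genes were higher in 16 of 17 members with a median of 0.30 (0.15 without SG 3, 0.46 without SG 1), and Cdh5, the cadherin of vessel walls, was at 8.24, 7.31 and 6.28 CPM in DIO and at 8.56, 13.4 and 12.6 CPM in SG (adjusted p = 0.129). Whether blood left in the tissue bears on either list was not tested. Skeletal muscle genes were high in SG 2 alone, at a sum of 54.0 CPM against 5.66 to 7.76 CPM in the other 5 libraries. S100a8 and S100a9, which mark neutrophils, had 83 and 79 counts in SG 2, 13 and 15 in SG 3 and 0 to 4 in the other 4.

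Cell cycle genes were lower in SG in all 24 members tested, with a median of -0.43. For 4 of the 24, only DIO was above the filter's cut in all 3 libraries, which leans toward a lower level in SG. By edgeR 0 were called, with 5 at an unadjusted p under 0.05, and DESeq2 called 3. Mki67, the common marker of dividing cells, was at 8.51, 8.27 and 3.56 CPM in DIO and at 3.84, 3.69 and 2.43 CPM in SG, so DIO 3 lay within the range of SG. The median was -0.68 without DIO 3, -0.67 without SG 1 and -0.27 without SG 3. The summed level of the adipocyte list was 121 to 152 CPM in DIO against 127 to 165 CPM in SG, with overlap. Within that list Ucp1, the uncoupling protein of brown fat, was at 0.832 and 1.85 CPM in DIO 1 and DIO 2 and had no count in DIO 3 or in any SG library, and Adipoq, the adipocyte hormone adiponectin, was at 1.71, 1.51 and 0.130 CPM in DIO and 0.0516, 1.37 and 0.396 CPM in SG.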
